A study of Mus musculus with 14 samples.

Results

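The 10 genes described here encode glycoproteins and small proteoglycans of the extracellular matrix: Fn1, Sparc, Dcn, Lum, Bgn, Postn, Tnc, Thbs1, Fbn1 and Eln. They were taken by symbol from a count table of 32926 genes, and all 10 symbols were in it. The table comes from poly(A) RNA sequencing of 14 libraries of mouse small cell lung cancer lines, and the series asks how YAP, a transcriptional coactivator of the Hippo pathway, relates to the split of these tumours into neuroendocrine (NE) and Non-NE cells. The comparison pursued here is which matrix genes came up to Non-NE levels when the activated form YAP5SA was switched on in NE cells, and which did not.

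NE and Non-NE cells had 3 libraries each, and the YAP5SA series in NE cells had 8, 2 each at days 0, 3, 7 and 21. All lines came from lung tumours of adult mice of mixed strain and were grown in Hites medium. All carried CGRPCreER/+ with floxed alleles that included Rbf/f and P53f/f, and the mice had been injected with TM, with 2 months given as the interval. The Cre is expressed from the locus of calcitonin gene-related peptide, so recombination is limited to cells that use this promoter. The YAP5SA libraries add Rosa26rtTA and Tet-onYAP5SA, an inducible transgene, except that the labels of day 0 replicate 1 list no transgene. Every library of days 3, 7 and 21 carried the transgene, so time in culture and YAP5SA cannot be told apart. The labels do not say whether replicates are separate lines, mice or cultures, so p-values measure the spread between these libraries, which may be technical.

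Matrix glycoproteins are large modular proteins that cells secrete and assemble outside the membrane. Fibronectin is laid down as fibrils through integrins and serves as a scaffold for later matrix, while thrombospondin, tenascin, SPARC and periostin are matricellular proteins that modulate adhesion more than they bear load. Decorin, lumican and biglycan are small leucine-rich proteoglycans that bind collagen fibrils, and fibrillin microfibrils carry the elastin of elastic fibres. Fibroblasts and other mesenchymal cells are their main source in lung. YAP acts with TEAD transcription factors, whose best known targets include matricellular genes such as Ccn1 and Ccn2.

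Library totals ran from 6730816 to 10659524 counts. Levels are given as CPM, counts scaled to library size by TMM, for each library in the order of its replicate number or as the group mean. NE replicate 2 had more counts than day 0 replicate 1 in 0 of 32926 genes and held 85.7% of its total, so these libraries share reads. NE and day 0 therefore do not vary independently. The level of Yap1, with transgene and endogenous reads in the same count, ranged over 8.20 to 19.2 CPM among NE and over 135 to 257 CPM among Non-NE libraries. On the successive days it ranged over 7.13 to 7.87, 1063 to 1233, 734 to 793 and 207 to 219 CPM. In bulk RNA, fewer cells of a type and less RNA per cell cannot be told apart. Where a whole group had no count, folds use a floor of 3 counts per group, which equals 0.104 CPM in NE and 0.152 CPM at day 7, the lowest and highest of the 6 groups. Floors, and the 95% intervals given for ratios with few counts, cover counting error only.

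In mm10 with GENCODE M21 the fibronectin gene Fn1 lies on chromosome 1 from 71585520 to 71653200 (minus strand), Thbs1 on chromosome 2 from 118111876 to 118127133 (plus) and Tnc on chromosome 4 from 63959785 to 64047015 (minus). Sparc lies on chromosome 11 from 55394500 to 55423183 (minus) and Postn on chromosome 3 from 54361109 to 54391037 (plus). Dcn and Lum lie on the plus strand of chromosome 10, from 97479609 to 97518143 and from 97565128 to 97572703, and Bgn on the plus strand of X from 73483602 to 73495933. Fbn1 lies on chromosome 2 from 125300594 to 125507993 and Eln on chromosome 5 from 134702593 to 134747323, both on the minus strand. All 10 are annotated as protein-coding, and 5 of them share exon bases with a gene on the opposite strand, from 176 bases for Tnc to 2442 for Fbn1. Whether counting used strand is not given in the sources used here, so reads of such pairs cannot be told apart, but where the partner is in the table it had 9 to 53 counts over all libraries.

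The table of RefSeq promoters on GRCm38.p6 held 5 of the 10 genes, and 3 windows that overlap no annotated exon are shown because these genes behaved differently under YAP5SA: Tnc and Bgn rose and Postn stayed at 0. Each line is the 250 bases before a start site on the gene's strand, 5′ to 3′, with matches to TATAAA in capitals. The windows are chr4:64047016-64047265 (minus) for Tnc, chrX:73483351-73483600 (plus) for Bgn and chr3:54360857-54361106 (plus) for Postn.
Tnc: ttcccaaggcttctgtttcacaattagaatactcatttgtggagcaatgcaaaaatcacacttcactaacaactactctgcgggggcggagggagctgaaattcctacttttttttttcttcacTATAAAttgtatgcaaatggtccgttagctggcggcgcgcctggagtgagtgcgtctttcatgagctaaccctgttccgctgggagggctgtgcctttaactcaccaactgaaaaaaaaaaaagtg
Bgn: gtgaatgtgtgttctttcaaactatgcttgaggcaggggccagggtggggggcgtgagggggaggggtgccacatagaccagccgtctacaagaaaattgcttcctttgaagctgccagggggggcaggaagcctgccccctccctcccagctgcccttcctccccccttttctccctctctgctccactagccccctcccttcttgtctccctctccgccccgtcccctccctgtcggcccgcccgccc
Postn: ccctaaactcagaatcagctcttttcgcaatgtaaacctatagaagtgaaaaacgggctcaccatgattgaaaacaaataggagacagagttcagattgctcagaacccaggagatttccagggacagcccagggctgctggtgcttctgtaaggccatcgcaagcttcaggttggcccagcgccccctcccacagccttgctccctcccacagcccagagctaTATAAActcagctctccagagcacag
The TEAD motif GGAATG, the AP-1 motif TGANTCA and the TATA box TATAAA were searched on both strands. GGAATG and TGANTCA had 0 matches in these windows and in those of Sparc and Fbn1, and 12.6% and 6.75% of 32851 promoter windows of the same length held them. TATAAA matched at 26 bases before the Postn start shown and 126 bases before the Tnc start shown, and 12.4% of all windows held it. Another Postn start has a window that overlaps no annotated exon either and is not shown. That window had 0 matches to each motif, and the bases after its start were not found in the GENCODE transcripts of Postn. A search of this kind describes the letters of a short window only.

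In Non-NE cells Fn1, Sparc, Thbs1, Tnc, Postn, Fbn1 and Bgn had clear levels in every library. Dcn and Lum were low there, and Eln had no count. NE cells had nearly none of the 10 genes apart from Thbs1. In Non-NE against NE, 8 of the 10 genes could be tested and all 8 were higher (edgeR quasi-likelihood test, adjusted p under 0.05), where 42.8% of all 12966 genes tested were called, 20.0% higher and 22.8% lower. The median log2 difference was 10.3 over these 8 genes and -0.02 over all genes tested. Genes near 0 in NE passed the filter on low counts only through Non-NE, so the direction of their difference was set by the filter. Under YAP5SA the genes separated: Sparc, Thbs1 and Eln had most of their day 21 level by day 7, Tnc, Fn1 and Bgn came up later, and Dcn, Lum, Postn and Fbn1 had at most 14 counts in any day group. Of the 8 genes with counts in every Non-NE library, Tnc alone lay within the span of those libraries at day 21. It did so through Non-NE replicate 1 only, and edgeR called it lower than Non-NE, a call that did not hold in all settings. Among the 2594 genes called higher in Non-NE than NE, 22.2% had both day 21 libraries at or above the lowest Non-NE library. Lum had 1 count at day 21 and 0 to 16 in the Non-NE libraries, and Eln stood above Non-NE, where it had no count.

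**Figure D1:**
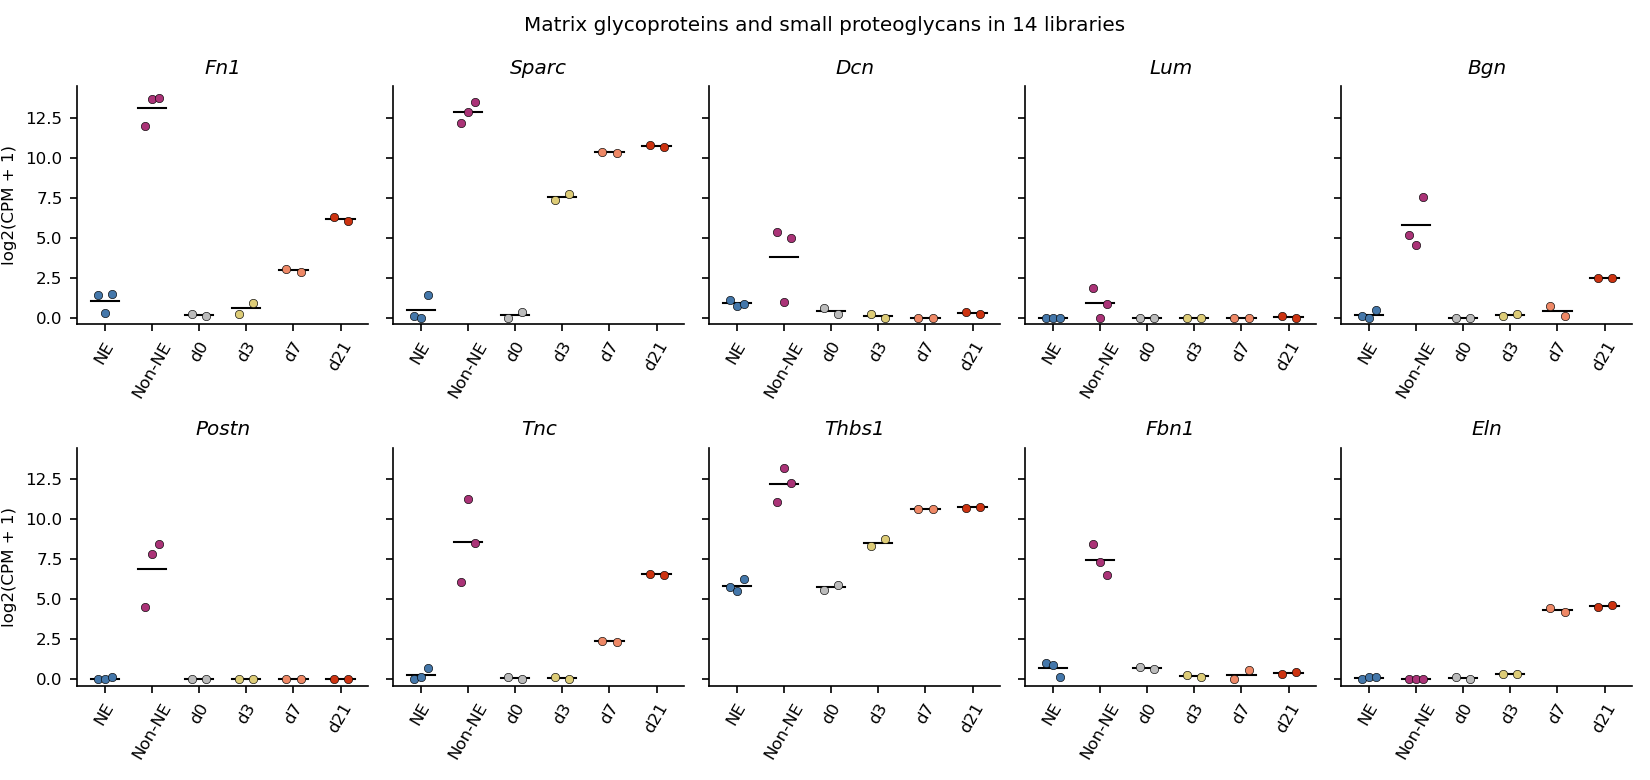
Level of each gene in 14 libraries as log2(CPM + 1), in panels by gene; points are libraries, bars are group means of the points, and d0 to d21 are days of the YAP5SA series. Fn1, Sparc, Tnc and Thbs1 were high in Non-NE and climbed with the days, Postn and Fbn1 were high in Non-NE and near 0 on every day, and Eln was clear from day 7 on, after 3 counts in each day 3 library, and had no count in Non-NE.

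Fn1 encodes fibronectin, the scaffold of provisional matrix. It stood at 1.74, 0.219 and 1.81 CPM in NE. In Non-NE the libraries held 4097, 13452 and 13742 CPM. The groups did not overlap, and the difference was 12.96 in log2 (SE 1.05, edgeR adjusted p = 0.000194). At day 0 the libraries held 0.187 and 0.0925 CPM, at day 3 they held 0.194 and 0.919 CPM, at day 7 they held 7.42 and 6.40 CPM, and at day 21 they held 77.0 and 64.5 CPM. Each step from day 3 on separated the libraries without overlap. Day 0 held 3 counts of Fn1 in all, and the ratio of day 21 to day 0 was 507 (95% interval 173 to 2460, edgeR adjusted p = 2.26e-19). The gene nevertheless remained far below Non-NE: the day 21 mean was 0.678% of the Non-NE mean (log2 difference -7.2, SE 0.63, edgeR adjusted p = 9.38e-06).

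Thbs1, the gene of thrombospondin-1, an adhesive glycoprotein that binds CD47, CD36 and integrins, was the exception among NE cells. Its level was 52.8, 46.0 and 76.6 CPM in NE against 2179, 9495 and 4972 CPM in Non-NE, a log2 difference of 6.53 (SE 0.67, edgeR adjusted p = 0.000484). The day 0 libraries stood at 47.0 and 59.1 CPM. Replicate 1 of day 0 lay in the NE range only through NE replicate 2, with which it shares reads. The level climbed to 325 and 434 CPM at day 3, 1587 and 1626 CPM at day 7, and 1695 and 1755 CPM at day 21. By edgeR the rise was 2.83 in log2 at day 3 (SE 0.12, adjusted p = 5.96e-15) and 5.04 at day 21 (SE 0.13, adjusted p = 6.19e-20), while day 21 against day 7 was 0.11 (SE 0.1, adjusted p = 0.392). Most of the climb was thus over by day 7. Both day 21 libraries lay below the lowest Non-NE library, and the difference from Non-NE was -1.69 in log2 (SE 0.49, edgeR adjusted p = 0.0151). That call was lost when either day 21 library was left out (adjusted p up to 0.0898). Without Non-NE replicate 2 it was -1.07, and the difference of Non-NE from NE was 5.91.

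Tnc encodes tenascin-C, a hexameric glycoprotein of developing and injured tissue. The NE libraries held 0, 0.109 and 0.639 CPM and the Non-NE libraries 66.4, 2441 and 367 CPM. The groups did not overlap (log2 difference 11.82, SE 1.93, edgeR adjusted p = 0.00327), but the Non-NE libraries themselves spanned 36.7-fold. Under YAP5SA the gene had 1 count at day 0 and 1 at day 3, stood at 4.37 and 4.07 CPM at day 7, and reached 97.0 and 91.1 CPM at day 21. The late libraries were thus above Non-NE replicate 1 and below the other Non-NE libraries. The ratio of day 21 to day 0 was 2020 (95% interval 362 to 79800, edgeR adjusted p = 1.6e-21), and day 21 exceeded day 7 by 4.48 in log2 (SE 0.14, edgeR adjusted p = 2.19e-18). Against Non-NE the day 21 level was lower by edgeR (log2 difference -3.35, SE 1.18, adjusted p = 0.0348), a call that 12 of 22 alternative settings lost, with adjusted p up to 0.161. Without Non-NE replicate 2 that difference was -1.23, and the one between Non-NE and NE was 9.7, against 13.79 without NE replicate 3 and 11.21 without NE replicate 1.

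Sparc, whose product is a collagen-binding matricellular protein also called osteonectin, had the steepest change at day 3 among the 10 genes. NE libraries held 0.0966, 0 and 1.71 CPM, and Non-NE libraries held 4699, 7596 and 11627.5 CPM (log2 difference 13.64, SE 1.32, edgeR adjusted p = 0.000409). Day 0 had 3 counts in all, in replicate 2. At day 3 the libraries stood at 166 and 212 CPM, at day 7 at 1325 and 1273 CPM, and at day 21 at 1797 and 1655 CPM. No libraries of successive days overlapped. The ratio of day 3 to day 0 was 1360 (95% interval 464 to 6580, edgeR adjusted p = 1.74e-20), and the later steps were 2.8 in log2 from day 3 to day 7 (SE 0.1, edgeR adjusted p = 2.49e-17) and 0.42 from day 7 to day 21 (SE 0.1, edgeR adjusted p = 0.000722). At day 21 the mean was 21.6% of the Non-NE mean and both libraries were below all Non-NE libraries (log2 difference -2.21, SE 0.53, edgeR adjusted p = 0.00579). Without day 21 replicate 2 that difference had an edgeR adjusted p of 0.0584. The difference between Non-NE and NE was 16.87 without NE replicate 3, which held most of the NE counts.

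Postn, which encodes periostin, a matricellular protein of mesenchymal cells and wound stroma, was seen almost entirely in Non-NE. The Non-NE libraries stood at 21.7, 225 and 348.5 CPM, and NE replicate 3 held the 1 count of the NE group. The ratio of Non-NE to NE was 6410 (95% interval 1150 to 253000, edgeR adjusted p = 0.00144). All 8 YAP5SA libraries had 0 counts of Postn. The day 21 level was at least 1540-fold lower than Non-NE by the floor of 3 counts (edgeR adjusted p = 0.00398).

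Of the 3 small leucine-rich proteoglycans, Bgn was the one with a clear level in all Non-NE libraries. Its product, biglycan, carries chondroitin or dermatan sulfate chains and binds collagen and growth factors. Bgn stood at 0.0966, 0 and 0.426 CPM in NE and at 35.4, 23.0 and 192 CPM in Non-NE, a log2 difference of 8.77 (SE 1.33, edgeR adjusted p = 0.00242). It had 0 counts at day 0, 3 at day 3, and 8 at day 7, 7 of them in replicate 1. At day 21 both libraries were near 4.6 CPM, at 4.57 and 4.55, at least 32.7-fold above day 0 (edgeR adjusted p = 1.96e-09). This was 5.47% of the Non-NE mean (log2 difference -4.19, SE 0.98, edgeR adjusted p = 0.006), and the call was lost without either day 21 library (adjusted p up to 0.0541). Without Non-NE replicate 3 this difference was -2.68 and that between Non-NE and NE 7.24, and the latter was 10.29 without NE replicate 3. The day 7 rise over day 0, at least 2.91-fold with an edgeR adjusted p of 0.00651, was lost without day 7 replicate 1. That call was also lost in a fit of all 14 libraries (edgeR adjusted p = 0.242).

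Dcn and Lum, for decorin and lumican, which space collagen fibrils, were low even in Non-NE. Dcn stood at 1.16, 0.656 and 0.853 CPM in NE and at 40.7, 0.977 and 31.0 CPM in Non-NE. Non-NE replicate 2 therefore lay inside the NE range, and the log2 difference of 4.69 (SE 1.22, edgeR adjusted p = 0.0206) was no longer called when any NE library, Non-NE replicate 1 or Non-NE replicate 3 was left out (adjusted p up to 0.148 over all settings). Lum had 16, 0 and 8 counts in the Non-NE libraries and none in NE, at least 9.77-fold higher by pooled counts, and was too low to be tested. Both genes were thus seen in Non-NE replicates 1 and 3. Under YAP5SA neither came up: Dcn had 8, 2, 0 and 5 counts at days 0, 3, 7 and 21, and Lum had 1 count in all, at day 21.

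Fbn1 and Eln, the paired components of elastic fibres, went opposite ways. Fbn1 encodes fibrillin-1, the backbone of microfibrils, and stood at 1.06, 0.875 and 0.107 CPM in NE and at 359, 164 and 89.7 CPM in Non-NE (log2 difference 8.13, SE 0.84, edgeR adjusted p = 0.000525). It had 14, 3, 5 and 7 counts at days 0, 3, 7 and 21, too few for the test between days, and at day 21 its mean was 0.165% of the Non-NE mean (log2 difference -9.19, SE 0.96, edgeR adjusted p = 3.23e-05). Without Non-NE replicate 1 these differences were 7.47 and -8.52. Eln encodes tropoelastin, the elastic core that fibrillin carries. It had 0 counts in all Non-NE libraries and 2 in NE. In the YAP5SA series Eln had 1 count at day 0 and 3 counts in each day 3 library, then 21.04 and 17.9 CPM at day 7 and 21.9 and 24.2 CPM at day 21. The ratio to day 0 was 418 at day 7 (95% interval 74.6 to 16600, edgeR adjusted p = 6.04e-16) and 495 at day 21 (95% interval 88.4 to 19600, edgeR adjusted p = 1.3e-16). Eln at day 21 was at least 182-fold higher than in Non-NE (edgeR adjusted p = 9.32e-06). The day 7 and day 21 libraries thus had elastin transcripts with next to no Fbn1, and the Non-NE libraries the reverse, while day 0 had 14 counts of Fbn1 and 1 of Eln.

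Counted over the days, 6 of the 10 genes could be tested among the YAP5SA libraries. Against day 0 the test called 2 of them higher at day 3, Sparc and Thbs1, with 48.6% of 13996 genes called, 26.2% higher and 22.3% lower. It called all 6 higher at day 7 (71.0% of genes called, 37.2% higher and 33.8% lower) and all 6 at day 21 (71.7%, 37.7% higher and 34.0% lower). All of the 6 but Thbs1 had at most 3 counts at day 0 and passed the filter on low counts through later days, so the direction of their difference from day 0 was set by the filter. In each of these 3 comparisons 0 of the 6 were called lower. With no filter Dcn, which had 8 counts at day 0 and 0 at day 7, was called lower at day 7 (log2 difference -4.99, edgeR adjusted p = 0.0217). At day 21 the median log2 difference was 8.77 over the 6 and 0.02 over all genes tested. From day 3 to day 7 the count was 5 of 6 higher (55.6% of genes called, 29.5% higher and 26.2% lower), and from day 7 to day 21 it was 4 of 6 (50.3%, 26.1% higher and 24.2% lower), with Thbs1 and Eln not called. Fn1, Tnc and Eln had 12, 1 and 6 counts at day 3, and Bgn had 8 at day 7. They passed the filter through later days, so the direction of these steps was set by the filter as well. With so large a share of all genes called in these libraries, whose replicates lay close together, the share of members called says little by itself. In a fit of all 14 libraries the day 21 against day 7 count was 1, Fn1. There the count was 4 at day 7 against day 0, with Bgn and Tnc lost, and 4 at day 7 against day 3, with Tnc lost.

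The tempo differed between members. At day 7 Thbs1 had 93.1% of its day 21 level, Eln 84.4% and Sparc 75.2%. Fn1 had 9.77%, Bgn 8.91% and Tnc 4.49% of theirs. At day 3 Thbs1 was at 22% and Sparc at 10.9% of the day 21 level, whereas Bgn was at 3.08%, Eln at 1.23%, Fn1 at 0.787% and Tnc at 0.0517%. The 6 genes that rose therefore fell into an early set and a late set by their day 7 level, a split made after the values were seen. At day 3 Eln was below Bgn of the late set, with 6 and 3 counts behind these values.

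**Figure D2:**
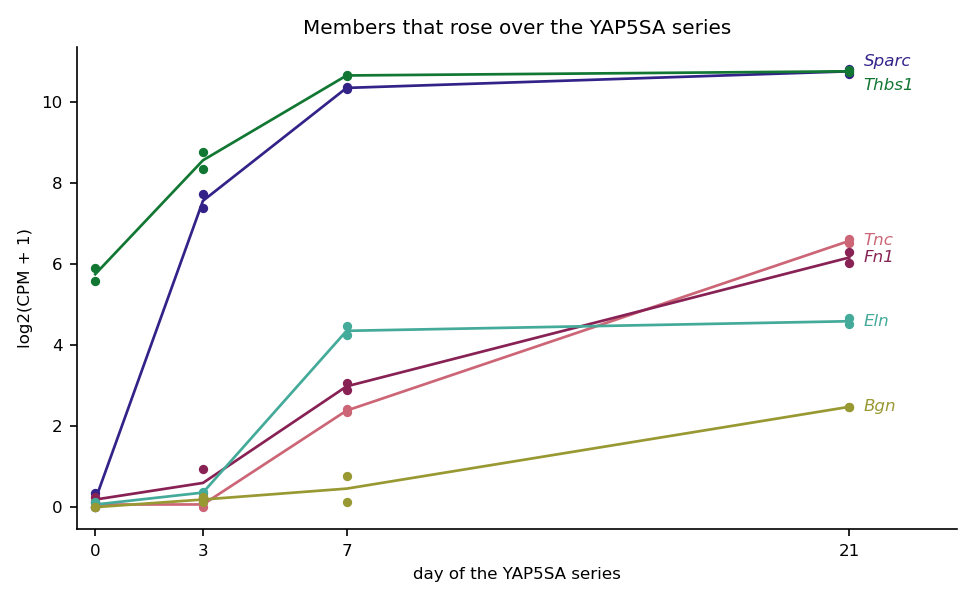
Level of the 6 genes tested between days, as log2(CPM + 1) on the vertical axis against the day of the YAP5SA series; points are the 2 libraries of a day and lines join their means. Sparc, Thbs1 and Eln change little after day 7, while Tnc, Fn1 and Bgn go on climbing to day 21.

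Set against Non-NE, 9 of the 10 genes could be tested. On each of days 3, 7 and 21 the test called 8 lower and 1, Eln, higher, where 58.9%, 57.2% and 55.3% of 14820 genes were called, 27.8%, 26.1% and 24.5% lower and 31.2%, 31.1% and 30.8% higher. Postn, Dcn and Fbn1 passed the filter through Non-NE and Eln through the days, so the direction of these 4 was set by the filter. Fn1, Bgn and Tnc had 12, 3 and 1 counts at day 3, and Bgn had 8 at day 7. They passed the filter through other groups, so their direction on those days was set by it as well. Non-NE and YAP5SA libraries are separate sets, so a difference of set and a difference of cells cannot be told apart here. A looser question is whether both libraries of a day reached at least the lowest Non-NE library, asked of the 8 genes with counts in every Non-NE library. At days 3 and 7 the count was 0 of 8, and at day 21 it was 1 of 8, Tnc. Among the 2594 genes called higher in Non-NE than NE the share was 7.09%, 20.7% and 22.2% on these days. Tnc reached the range through Non-NE replicate 1, and without that library the count was 0.

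As shares of the Non-NE mean, the day 21 means ran from Thbs1 at 31.1%, Sparc at 21.6%, Tnc at 9.81% and Bgn at 5.47% down to Dcn at 0.99%, Fn1 at 0.678% and Fbn1 at 0.165%, with Postn at 0. This order turned on single Non-NE libraries, which were left out in turn after the values were seen. Without Non-NE replicate 2 Tnc was at 43.4%, above Sparc at 21.1%, and Thbs1 at 48.2%. Without Non-NE replicate 3 Bgn was at 15.6%, above Tnc at 7.5%. Without Non-NE replicate 1 Dcn was at 1.5% and Fbn1 at 0.266%. Tnc was the member just inside the range, and Thbs1 and Sparc were the nearest outside it: their highest day 21 libraries, 1755 and 1797 CPM, compare with lowest Non-NE libraries of 2179 and 4699 CPM. Fn1 was among those furthest from it, with a day 21 high of 77.0 CPM against a Non-NE low of 4097 CPM.

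**Figure D3:**
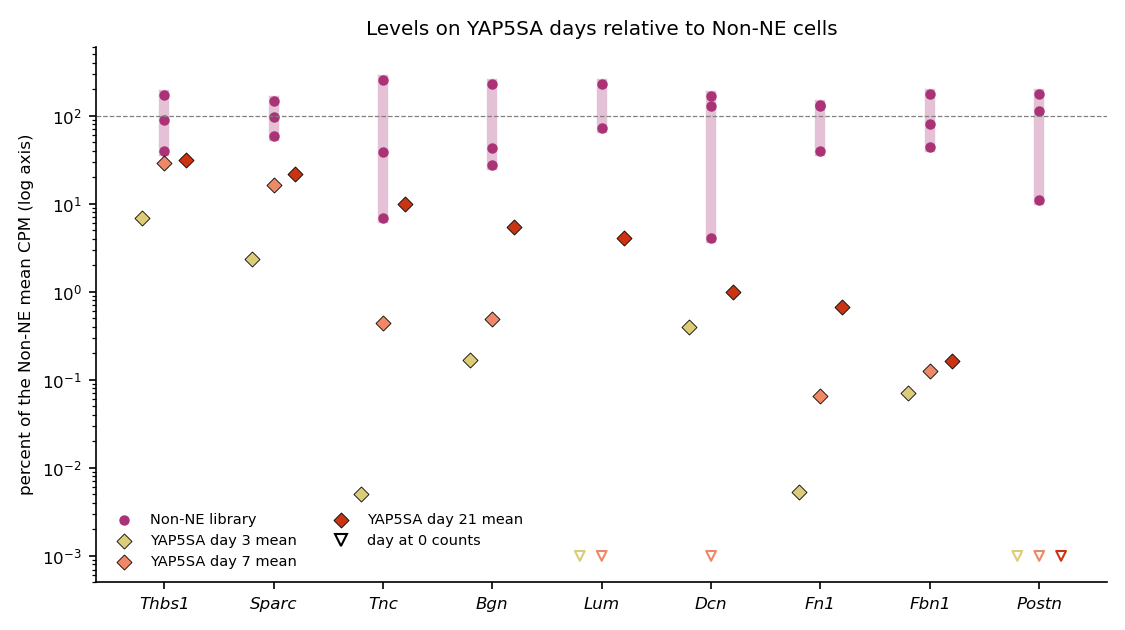
Level of the 9 genes seen in Non-NE, in percent of their Non-NE mean CPM on a log axis; circles are Non-NE libraries, shaded bars their span (1 Lum library at 0 is not drawn), diamonds the means of days 3, 7 and 21, and open triangles mark days with 0 counts. At day 21 Thbs1 is at 31.1% and Sparc at 21.6%, and Tnc at 9.81% lies within the wide span of its Non-NE libraries.

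Levels of different genes are compared per kilobase of the union of annotated exons. Which transcripts of a gene were present was not measured, so the orders hold for this length only. In Non-NE the order of mean CPM per kilobase was Sparc at 2110, Thbs1 at 914, Fn1 at 893, Tnc at 123, Postn at 22.8, Fbn1 at 16.8, Bgn at 13.7, Dcn at 4.15 and Lum at 0.476, with Eln at 0. Neighbours in this order overlapped between libraries, except that Fn1 at 351 to 1180 lay above Tnc at 8.55 to 314. At day 21 the order was Sparc at 456, Thbs1 at 284, Tnc at 12.1, Fn1 at 6.05, Eln at 2.85 and Bgn at 0.748, and no libraries of neighbours in that order overlapped. The day 21 values of Dcn, Fbn1 and Lum, 0.0411, 0.0278 and 0.0195 CPM per kilobase, rested on 5, 7 and 1 counts, and Postn was at 0.

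The make-up of the group by this measure changed with state. Thbs1 made up 95% of the summed CPM per kilobase of the 10 genes in NE and 98% at day 0. Its share was 55.5% at day 3, 43.3% at day 7 and 37.3% at day 21, against 21.5% in Non-NE. Sparc made up 0.37% at day 0, then 44.4%, 56.1% and 59.8% on the later days, all inside the 39.5% to 61.9% of the Non-NE libraries. Fn1 made up 20.9% in Non-NE and 0.794% at day 21. The Sparc share thus lay in the Non-NE range from day 3 on while its level did not, and the fibronectin share stayed low.

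The Non-NE libraries differed among themselves by member. Sparc, Fn1, Fbn1 and Thbs1 spanned 2.47-fold, 3.35-fold, 4-fold and 4.36-fold between their highest and lowest library, and Bgn 8.36-fold. Postn spanned 16.1-fold, Tnc 36.7-fold and Dcn 41.6-fold. Non-NE replicate 1 was lowest for Fn1, Sparc, Postn, Tnc and Thbs1 and highest for Dcn, Lum and Fbn1, while replicate 2 was highest for Tnc and Thbs1 and lowest for Dcn, Lum and Bgn. The day 21 libraries lay closer together, for example at 77.0 and 64.5 CPM for Fn1 and 97.0 and 91.1 CPM for Tnc.

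The partners of Fbn1 and Eln in elastic fibres and microfibrils were taken as a list of 17 genes. Levels of listed genes are group means, with ± SD over the 3 libraries of NE or Non-NE or the 2 of a day where given. In Non-NE against NE 12 were tested, 10 were higher and 0 lower, with a median log2 difference of 8.61. At day 21 against day 0, 10 of 11 were higher and 0 lower (median 4.95), and against Non-NE 10 of 15 were lower and 1 higher at day 21 (median -3.18). Over all genes tested, 20.0% were higher and 22.8% lower in Non-NE against NE. The shares were 37.7% and 34.0% at day 21 against day 0, and 30.8% and 24.5% at day 21 against Non-NE. The same shares apply to the lists that follow. Listed genes near 0 in a group passed the filter only through another group, which set the direction of their difference. Lox, the lysyl oxidase that crosslinks elastin and collagen, stood at 3548 ± 1962 CPM in Non-NE and 0.234 CPM at day 0, then 21.9 CPM at day 7 and 510.3 ± 44 at day 21 (day 21 against day 0 log2 difference 11.05, SE 0.18, edgeR adjusted p = 5.44e-25). Fbln2, the microfibril-bound fibulin-2, and the latent TGF-beta binding protein gene Ltbp1 stood at 1191 ± 551 and 887 ± 366 CPM in Non-NE but at 4.46 ± 1.37 and 14.4 ± 1.26 CPM at day 21. Ltbp3 was at 585 ± 295 CPM in Non-NE, 33.9 at day 0 and 64.6 ± 6.47 at day 21.

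Other genes of that list were picked after their values were seen because they flank the contrast between Fbn1 and Eln. Fbln5, whose product fibulin-5 organizes elastin, rose from 1 count at day 0 to 5.71 CPM at day 3, 100.4 at day 7 and 201 ± 2.85 at day 21, against 315 ± 21.9 CPM in Non-NE (day 21 against Non-NE log2 difference -0.65, SE 0.18, edgeR adjusted p = 0.0127, lost without either day 21 library). Fbn2, the second fibrillin gene, stood at 3.07 CPM at day 0, 75.8 at day 3, 170.1 at day 7 and 94.3 ± 17.5 at day 21, and at 0.977 to 43.0 CPM in Non-NE (day 21 against day 0 log2 difference 4.95, SE 0.15, edgeR adjusted p = 1.16e-19). Fbn2 was thus up where Fbn1 was not. Efemp1, for fibulin-3, had 0 counts at day 0 and 32.7 CPM at day 21, while Non-NE libraries ran from 0.165 to 32.6 CPM. Emilin1 and Loxl1 kept to the pattern of Fbn1: Non-NE means were 124 ± 54.2 and 34.9 ± 2.48 CPM, and day 21 means 0.290 and 0.0484 CPM.

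**Figure D4:**
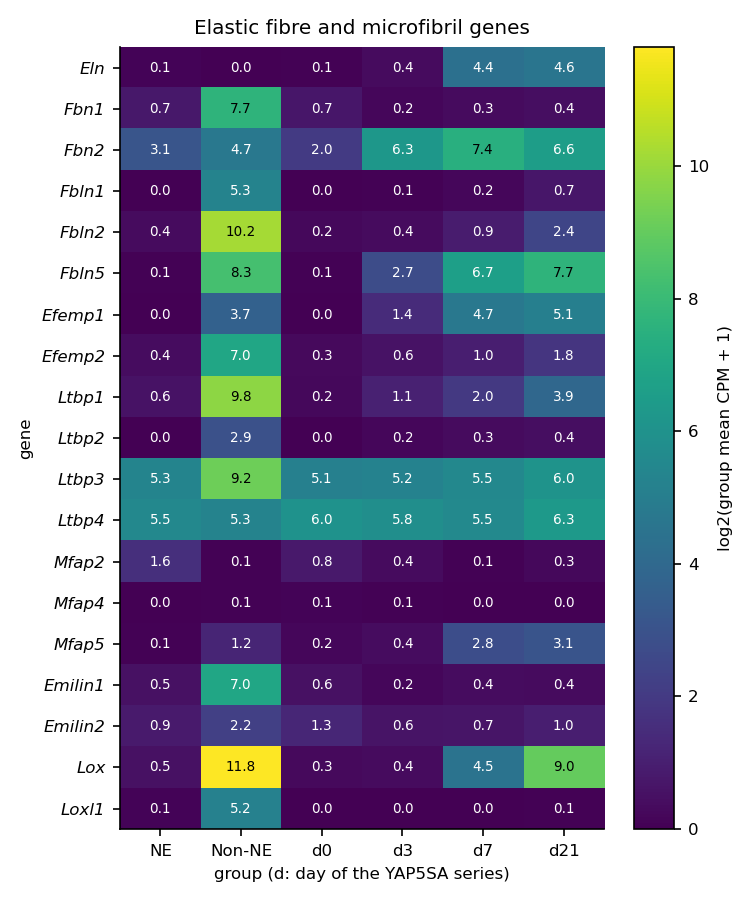
Group means of Eln, Fbn1 and their 17 elastic fibre and microfibril partners in NE, Non-NE and the YAP5SA days, as log2(group mean CPM + 1) on the colour scale and as printed values. Eln, Fbn2, Fbln5, Efemp1 and Lox are up at day 21, while Fbn1, Fbln1, Emilin1 and Loxl1 are high in Non-NE and near 0 at day 21.

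Other small leucine-rich proteoglycans were a list of 14 genes. In Non-NE against NE 5 of 8 tested were higher and 0 lower (median log2 difference 4.86), and at day 21 against day 0 it was 2 higher and 2 lower of 5 (median -0.25). Ogn, the osteoglycin gene, stood at 44.2 to 388 CPM in Non-NE and rose from 3 counts at day 0 to 17.8 and 24.3 CPM at day 21, still lower than Non-NE (log2 difference -3.68, SE 0.79, edgeR adjusted p = 0.00299). Tsku, for the secreted proteoglycan tsukushi, was at 0.467 CPM at day 0 and 25.9 ± 3.29 at day 21, against 18.0 ± 4.25 CPM in Non-NE (day 21 against Non-NE log2 difference 0.52, SE 0.3, edgeR adjusted p = 0.169). Prelp ran from 1.59 to 225 CPM and Omd from 3.54 to 36.9 CPM in the Non-NE libraries, and their day 21 means were 0.627 and 0.526 CPM. The Prelp difference between Non-NE and NE (edgeR adjusted p = 0.0257) was lost when any NE library was left out.

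Relatives of SPARC were a list of 7, of which 6 were tested in Non-NE against NE, with 2 higher and 3 lower (median log2 difference -5.47), and at day 21 against day 0 it was 1 higher and 4 lower of 5 (median -0.97). Spock2, for the proteoglycan testican-2, was a gene of NE cells at 510.1 ± 62.1 CPM, with 0.884 CPM in Non-NE, and its level was 560.0 ± 26 CPM at day 0 and 1275 ± 107 CPM at day 21 (log2 difference 1.21, SE 0.08, edgeR adjusted p = 9.09e-13). Spock3 stood at 89.5 CPM in NE and 0 in Non-NE, and fell from 149.7 to 22.3 CPM between days 0 and 21. Fstl1, for the SPARC-like glycoprotein follistatin-like 1, was at 747 ± 256 CPM in Non-NE, 12.9 ± 1.00 at day 0, 52.9 ± 7.19 at day 3, 12.7 at day 7 and 6.48 ± 0.806 at day 21. It rose at day 3 (log2 difference from day 0 of 2.03, SE 0.12, edgeR adjusted p = 6.51e-13) and was lower at day 21 than at day 0 (-0.97, SE 0.17, edgeR adjusted p = 1.68e-05). Smoc2 was at 57.2 CPM at day 0, 106.2 at day 7 and 25.4 at day 21.

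Relatives of fibronectin, tenascin and thrombospondin were 10 genes, of which 4 were tested in Non-NE against NE (1 higher, 2 lower, median log2 difference -2.69) and 7 at day 21 against day 0 (4 higher, 2 lower, median 1.31). Fndc1, which encodes a secreted protein with fibronectin type III domains, had 0 counts in NE and at day 0, 66.3 CPM at day 7 and 119 ± 7.79 CPM at day 21, at least 849-fold above day 0 (edgeR adjusted p = 1.52e-21). Non-NE libraries of Fndc1 ran from 4.27 to 702 CPM, and the Non-NE against NE call (edgeR adjusted p = 0.0386) was lost without any of the NE libraries. Tnr, the tenascin of nervous tissue, stood at 22.8 CPM in NE and 0.147 in Non-NE and fell from 18.7 to 8.12 CPM between days 0 and 21. Thbs3 fell from 10.6 to 5.23 CPM over the same days. Thbs4 was at 1.44 CPM at day 0 and 2.64 at day 21, a rise (edgeR adjusted p = 0.0151) lost without day 0 replicate 1 or day 21 replicate 1.

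Among 11 large and basement membrane proteoglycans and linkers, 2 were higher and 3 lower of 7 tested in Non-NE against NE (median log2 difference 0.02), and 5 were higher and 3 lower of 8 at day 21 against day 0 (median 0.86). Agrn, for the heparan sulfate proteoglycan agrin, stood at 73.8 ± 13 CPM in NE and 76.9 ± 15.7 in Non-NE but climbed from 55.5 CPM on day 0 to 563 on day 3 and 724 ± 50.9 on day 21 (log2 difference 3.73, SE 0.11, edgeR adjusted p = 1.77e-20). Hspg2, for perlecan, rose from 1.95 to 47.1 CPM against 800.1 ± 198 CPM in Non-NE. Vcan, for versican, fell from 35.9 to 5.48 CPM between days 0 and 21 and ranged from 1.65 to 133 CPM in Non-NE. Nid2, for nidogen-2, had 1 count in NE and stood at 77.9 ± 74.3 CPM in Non-NE and 0.623 at day 21.

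The chains of biglycan and decorin are built by enzymes of chondroitin and dermatan sulfate synthesis, a list of 21. In Non-NE against NE 9 of 19 tested were higher and 0 lower (median log2 difference 1.2), and at day 21 against day 0 it was 13 higher and 5 lower of 19 (median 0.65). Dse, the epimerase that turns chondroitin into dermatan sulfate, stood at 14.8 CPM in NE, 123 ± 30.1 in Non-NE and 29.2 ± 1.23 at day 21 (day 21 against Non-NE log2 difference -2.07, SE 0.22, edgeR adjusted p = 3.76e-05). Chst12, a chondroitin sulfotransferase gene, stood at 34.4 CPM at day 0 and 100.7 at day 21, and at 75.4 ± 19.0 in Non-NE. Chpf and Csgalnact2, which act in chain polymerization and initiation, rose by 0.65 and 0.69 in log2 from day 0 to day 21 (edgeR adjusted p = 2.89e-07 and 9.25e-08).

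Cell surface receptors of the members were a list of 13. In Non-NE against NE 7 of 10 tested were higher and 0 lower (median log2 difference 3.94), and at day 21 against day 0 it was 8 higher and 2 lower of 10 (median 1.77). Itga5, the alpha subunit of the fibronectin receptor, stood at 13.2 CPM in NE, 715 ± 696 in Non-NE, 5.64 at day 0 and 126 ± 6.38 at day 21 (day 21 against day 0 log2 difference 4.5, SE 0.14, edgeR adjusted p = 7.87e-20). Itgb1, its partner, was at 663 CPM at day 0 and 1039 ± 80.4 at day 21, against 2041 ± 854 CPM in Non-NE. Itgav, chosen after its values were seen, had 3 counts at day 0 and 56.3 ± 4.97 CPM at day 21, against 356 ± 133 CPM in Non-NE. Sdc4, a heparan sulfate proteoglycan that binds fibronectin, rose from 248 to 373 CPM between days 0 and 21. Cd47, a thrombospondin receptor, stood at 189 CPM at day 0 and 165 at day 21 (log2 difference -0.18, SE 0.08, edgeR adjusted p = 0.0416). That call was lost without either day 0 library, without either day 7 library and without day 21 replicate 2. It was also lost with DESeq2 size factors, the DESeq2 test and the replicate number as a block. In a fit of all 14 libraries the day 21 against day 0 calls of Tnr, Thbs3, Thbs4, Fstl1, Smoc2, Ltbp3, Vcan, Chpf, Csgalnact2, Dse, Itgb1, Sdc4 and Cd47 were lost, with edgeR adjusted p from 0.0926 for Thbs3 to 0.703 for Thbs4.

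Markers of cell types were read beside these results. Neuroendocrine markers, 6 genes with Chga, Insm1, Ddc and Scg3 foremost, summed to 1520 to 1760 CPM in NE against 0.826 to 1.91 CPM in Non-NE, and to 1590 to 1650 CPM on day 0 and 344 to 347 CPM on day 21, and all 5 that were tested were lower in Non-NE and at day 21 than in NE and at day 0. Calca, the gene of calcitonin gene-related peptide, had 0 counts in NE, in Non-NE and on days 0, 3 and 7. Fibroblast markers, 11 genes, summed to 2.12 to 17.9 CPM in NE against 7250 to 17300 CPM in Non-NE, where 5 of 5 tested were higher, with Col1a1 at 9968 ± 4427 CPM, Col3a1 at 3140 ± 3236 and Pdgfrb at 468 ± 354, and with Thy1 and Tcf21 at 0. The collagen genes of that list are themselves matrix genes. At day 21 the fibroblast sum was 49 to 54.1 CPM, with Twist2, Prrx1, Tcf21 and Dpt at 0, Thy1 at 26.1 CPM and Col1a1 at 3.60. The fibroblast sum, with Col1a1 and Col3a1 foremost, was thus high in Non-NE, where Fbn1 and Postn were high. Single markers differed: at day 21 against Non-NE, 10 were tested, 3 were higher and 5 lower. The part of fibroblast markers in the levels of the members was not tested.

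The 4 mesothelial markers summed to 261 to 690 CPM in Non-NE and 418 to 480 CPM at day 21, more than the fibroblast and neuroendocrine sums of that day. Nearly all of it was Msln, at 491 ± 216 CPM in Non-NE, with Upk3b, Wt1 and Lrrn4 at 0, and at 431 ± 41.9 CPM at day 21, where Upk3b was at 9.86 and Lrrn4 at 7.11. The 6 smooth muscle and pericyte markers summed to at most 19.6 CPM in any library, with Notch3 at 7.40 CPM, Des at 4.18, Myh11 at 3.13 and Cnn1 at 2.26 at day 21. The 6 endothelial markers, Tek and Pecam1 among them, summed to at most 2.44 CPM. The 5 macrophage and leukocyte markers in the table summed to 113 to 136 CPM at day 21, of which Csf1r was 114.5 CPM, Cd68 8.51 and Lyz2 1.25, and Ptprc was at 0. The part of these cell types in the members' levels was not tested.

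For each member above 10 CPM in some group, the genes whose log2(CPM + 1) followed it most closely over the 13 libraries without NE replicate 2 are given with Pearson's r, as a description over libraries that share a few cell states. Sparc went with Ppfibp1 (0.9945), Sema3c (0.9897) and Emp1 (0.9895), and Thbs1 with Lepre1 (0.9903), Emp1 (0.9869) and Ppfibp1 (0.9856). Sparc and Thbs1 were also close to each other, at 0.98. Fn1 went with Dbn1 (0.9919), Runx2 (0.9917) and Tgm2 (0.9914), and Tnc with Inhba (0.9880), Tgfb2 (0.9847) and Edn1 (0.9823). Fbn1 went with Emilin1 (0.9972), Fcgr4 (0.9944) and Mtmr11 (0.9941), and Postn with Gm13470 (0.9968), Fgfr1 (0.9967) and Capn6 (0.9962). Bgn went with Gulp1 (0.9850), Mylk (0.9850) and Plxdc2 (0.9820), Dcn with Hoxa6 (0.9786), 5730596B20Rik (0.9785) and Cyp2j9 (0.9782), and Eln with Gm3764 (0.9970), Ifi27l2b (0.9966) and Filip1 (0.9959). Between members, Eln alone had negative r, and its r ranged from -0.41 with Fbn1 and Dcn to 0.4 with Sparc. Pairs of the other members were not all close: their r ran from 0.35 for Dcn with Thbs1 to 0.98 for Sparc with Thbs1.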

How the data were processed

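The authors deposited 1 table of raw counts per gene symbol. The submitters' processing notes name STAR 2.4.2, featureCounts and the build mm10. The annotation and strand setting are not given in the sources used here. All 14 columns were mapped by title, and 0 were left out. The counts were tested with the robust quasi-likelihood test of edgeR 4.0.16 (R 4.3.3), with TMM, filterByExpr and Benjamini-Hochberg adjustment over all genes tested (calls under 0.05), in 3 fits: NE with Non-NE (12966 genes), the YAP5SA days (13996) and 13 libraries without NE replicate 2 (14820), whose biological coefficients of variation were 0.399, 0.0548 and 0.266. Exon lengths and positions came from GENCODE M21. The members and gene lists were chosen with earlier results of these data known. From each list the text names at most 4 called genes with the highest mean CPM, or the highest genes where none was called. Markers at 0 in a group and Fbln1 are named besides, and the text says where others were added. An item of the genotype and a marker gene are not reported here. Alternatives used DESeq2 1.42.0 and limma 3.58.1. The pipeline was checked on simulated counts. Depth limits the low genes, where 1 count is about 0.1 CPM.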

Additional observations from a re-analysis of the deposited data

How the results depend on the processing

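Settings tried were other scalings, filters and tests (DESeq2, limma-voom), the replicate number as a block, all 14 libraries in a fit, leaving out each library, and leaving out day 0 replicate 1 in place of NE replicate 2. Of the log2 differences of members under these settings, 1142 kept direction and call, 37 lost the call, 3 gained it and 4 reversed, all 4 in comparisons not called. Tnc at day 3 against day 0 was 0.01, with 1 count on each side; it was -0.04 with library totals and -2.28 to 2.28 when a library was left out (-0.84 without day 0 replicate 2). Bgn at day 7 against day 3 was 1.47 and ran from -0.42 to 2.26 when a library was left out. With all 14 libraries in a fit, whose spread is that of all groups, the genes called in Non-NE against NE came to 8997 in place of 5554. Those called against day 0 came to 1041 at day 3, 4589 at day 7 and 4586 at day 21 (6801, 9932 and 10032 among the days alone), those of day 7 against day 3 to 1281 (7788) and those of day 21 against day 7 to 515 (7044), where 1 member was called in place of 4. Leaving out a library left 4 to 9 members called at day 21 against Non-NE, and 0 to 1 in the Non-NE range at day 21, with 0 without Non-NE replicate 1. At day 7 against Non-NE the Thbs1 call was lost without either day 7 library. By the TMM factors over 14 libraries, library totals in place of TMM shifted log2 differences by -0.3 in Non-NE against NE. The shift was -0.19 at day 7 against day 0 and 0.23 at day 3 against Non-NE. Library totals reversed no called member. No pairing by replicate number was seen: deviations of same-numbered libraries correlated at -0.01 to 0.05 between NE and Non-NE. Between the YAP5SA days they correlated at -0.1 to 0.04. With so few libraries per group, these values cannot exclude a source shared by same-numbered libraries. With the replicate number as a block, 4888 genes were called in Non-NE against NE and 9942 at day 21 against day 0. Depth limits Dcn, Lum, Postn and Fbn1 on the YAP5SA days, where levels under the floor were not detectable.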
